A study of Homo sapiens with 6 samples.

Results

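Mitochondrial ribosomal protein genes were followed in BT-549 cells, and the 78 members were chosen by name, as the protein-coding genes of the GENCODE annotation whose symbols begin with MRPL or MRPS and a digit. The deposited tables list 63140 genes. By symbol, 49 members belong to the large subunit (MRPL) and 29 to the small subunit (MRPS). The proteins of MRPS30 and MRPS18A sit in the large subunit despite their symbols, which gives 51 and 27 members by structure. MRPS36, described further on, is still counted among the 27.

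The mitochondrial ribosome, or mitoribosome, translates the few mRNAs that mitochondrial DNA encodes, all of them for subunits of the respiratory chain and the ATP synthase. Its rRNAs come from mitochondrial DNA, whereas its proteins are encoded in the nucleus, made in the cytosol and imported. Many of the proteins have homologues in bacterial ribosomes, and the remainder arose in the mitochondrial lineage.

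BT-549 is an established triple negative breast cancer line, labelled as wild type, and 1 line cannot stand for other breast cancer cells. Cells were grown for 24 h in adipocyte-conditioned medium (ACM, 3 libraries) or in unconditioned medium (UCM, 3 libraries), and polyA-enriched RNA was sequenced in pairs. ACM was collected from OP9 mouse cells that had been differentiated into adipocytes in a medium with insulin and oleate. The labels give 50% ACM, the paper's supplement gives undiluted ACM for sequencing, and the formula of UCM is not stated in the sources used here, so secreted factors and medium composition cannot be told apart.

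Libraries held 18011670 to 21053257 expected counts in ACM and 17135288 to 20975782 in UCM. The cells are labelled epithelial, but EPCAM, KRT8, KRT18 and KRT19 did not exceed 0.753 CPM (read counts scaled to the library's total) in the 6 libraries and CDH1 lay between 0.45 and 1.83 CPM. Of the mesenchymal markers, VIM ranged from 2736 to 3554 CPM and CDH2 from 174 to 205 CPM, with SPARC and FN1 also high. ESR1 and PGR were at 0, as were the adipocyte genes ADIPOQ, LEP and CIDEC, while PLIN1 and FABP4 did not exceed 0.0951 CPM.

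Nuclear genes for mitochondrial proteins are known for short promoters that can hold sites for NRF1, for ETS factors such as the GABPA and GABPB1 pair, and for YY1. The RefSeq promoter table (GRCh38.p14, 250 bases before to 50 after each gene's start) held 69 of the 78 members. The ETS letters CCGGAAGT, searched on both strands like the other motifs, stood in 11 of these 69 promoters (15.9%) and in 4.44% of all 27305 promoters of the table. The NRF1 core GCATGCGC stood in 6 (8.70% against 3.27%), the YY1 letters AAGATGGCG in 13 (18.8% against 1.85%) and the E-box CACGTG in 6 (8.70% against 7.43%). Among the 15345 promoters of protein-coding genes in the table the shares were 6.32%, 4.25%, 2.80% and 8.89% for the ETS, NRF1, YY1 and E-box letters. At least 1 of the 4 stood in 27 of the 69 promoters (39.1%), against 15.2% of all and 19.7% of protein-coding promoters. These are matches of letters, not sites shown to be bound.

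The sites below show the ETS letters in capitals in MRPL27, the member with the lowest ACM to UCM ratio, and in MRPL20 and MRPL47, whose adjusted p lay just above the threshold. These genes were picked for their values from the 11 members with the letters. Over all 11, the median ratio lay nearer to equal than in members without the letters, as given further on. Each site is written 5′ to 3′ on the gene's own strand, which is the minus strand for these genes. The sites lie at chr17:50373218-50373247 and chr17:50373174-50373203 for MRPL27, chr1:1407319-1407348 for MRPL20 and chr3:179604659-179604688 for MRPL47. Their first capital stands 52, 8, 44 and 39 bases upstream of the RefSeq start. GENCODE places the start of MRPL27 further upstream, so its site near the RefSeq start lies inside the GENCODE gene.
MRPL27, upstream site: ccacgcagggcCCGGAAGTagatctcctga
MRPL27, site near the start: acttttcgagaCCGGAAGTgagtgatcgaa
MRPL20: cgaccttcgccCCGGAAGTatcgcaggggc
MRPL47: ggcttgagacgCCGGAAGTgacgctatcgt

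The NRF1 core is shown in capitals for MRPL17, which holds it on the minus strand of chromosome 11 (chr11:6683401-6683430, 79 bases upstream), and for MRPS18B on the plus strand (chr6:30617806-30617835, 23 bases upstream). In MRPL17 the core overlaps a second match on the other strand, since its letters are partly palindromic.
MRPL17: ggctctgatgcGCATGCGCaaacacgttca
MRPS18B: agtttcctgaaGCATGCGCagttgcctttc

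The YY1 letters are shown for a different reason. Of their 14 matches in 13 members, 10 lay after the transcript's start, and in 9 members the ATG at the 4th letter was an annotated GENCODE start codon. MRPS24 (chr7:43869479-43869508, minus strand), MRPS30 (chr5:44808950-44808979, plus strand), MRPS18A (chr6:43687763-43687792, minus strand) and MRPL46 (chr15:88467361-88467390, minus strand) are of this kind, with the match in capitals.
MRPS24: cgcttggcccAAGATGGCGgcctccgtgtg
MRPS30: atcgcgggcaAAGATGGCGgcggccaggtg
MRPS18A: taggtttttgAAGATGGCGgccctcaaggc
MRPL46: gggagaacgaAAGATGGCGgcgcccgtaag

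The 78 members were expressed at widely different levels. On the TPM scale, which is per length and allows genes to be compared, mean levels in UCM ran from 15.1 to 644 with a median of 91.8. The median was 98.2 TPM over the MRPL genes and 72.9 TPM over the MRPS genes in UCM, and 85.5 and 66.4 TPM in ACM.

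**Figure D1:**
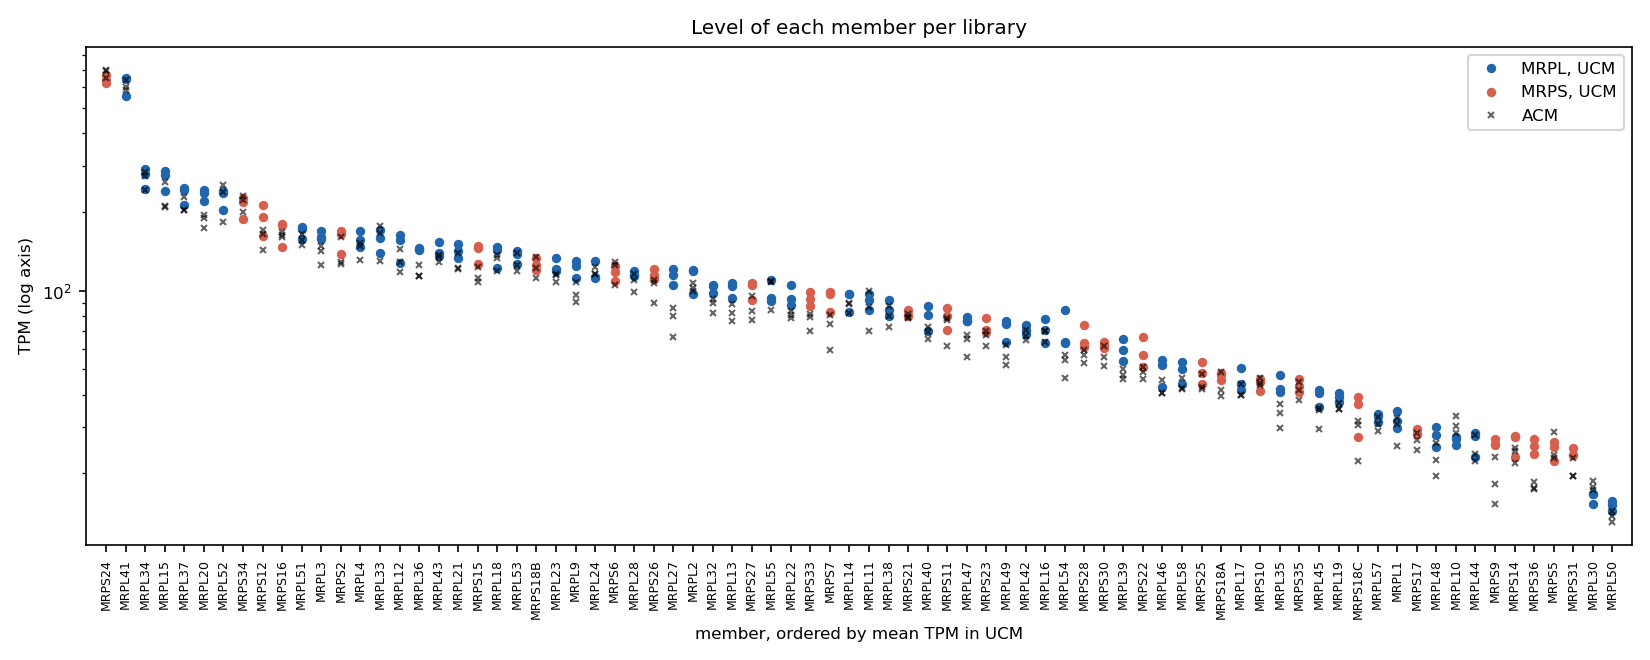
TPM of the 78 members in each library on a log axis, ordered by mean TPM in UCM. Circles are the 3 UCM libraries, blue for MRPL and red for MRPS, and crosses are the 3 ACM libraries. MRPS24 and MRPL41 stand above the others, and MRPL50 and MRPL30 are lowest.

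MRPS24, a small subunit protein related to bacterial S3, had the highest level. Its TPM was 653, 701 and 695 in the ACM libraries and 625, 638 and 669 in the UCM libraries. MRPL41, a large subunit protein without a bacterial homologue, came next, with 602, 585 and 638 TPM in ACM and 553, 647 and 652 TPM in UCM. The UCM ranges of these genes overlapped, so their order was not separated beyond the spread of replicates.

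The members that followed lay far below the leading pair. MRPL34, the homologue of bacterial L34, averaged 272 TPM ± 24.5 in UCM (SD, n = 3) and 267 ± 21.4 in ACM. MRPL15, related to bacterial L15, averaged 268.5 ± 24.8 in UCM and 227 ± 29.3 in ACM, and MRPL37, a mitochondrion-specific protein of the large subunit, averaged 234 ± 18.3 and 212 ± 14.5. MRPL34 and MRPL15 did not differ beyond their spread in UCM.

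At the other end, MRPL50, a mitochondrion-specific large subunit protein, averaged 15.1 TPM ± 0.647 in UCM and 13.7 ± 0.640 in ACM. MRPL30, related to bacterial L30, averaged 16.2 ± 0.804 in UCM and 17.9 ± 0.727 in ACM. MRPS31, a mitochondrion-specific small subunit protein, averaged 24.0 ± 0.811 in UCM and 20.7 ± 1.94 in ACM. The lowest mean count of a member in a group was 233 per library (MRPL54 in ACM), and the 78 members passed the filter on low counts.

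In ACM most members lay slightly below their UCM level, and few single members passed the test. The log2 fold change (log2 FC, ACM over UCM, from edgeR's quasi-likelihood test on expected counts) was below 0 for 69 of 78 members, against 51.9% of the 14451 genes tested. Its median over the members was −0.13, with the central values between −0.22 and −0.06, beside a median of −0.01 over all genes tested. The members' log2 FC ran from −0.51 to 0.13. RNA from whole cultures cannot tell less RNA per cell from fewer cells of one kind.

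**Figure D2:**
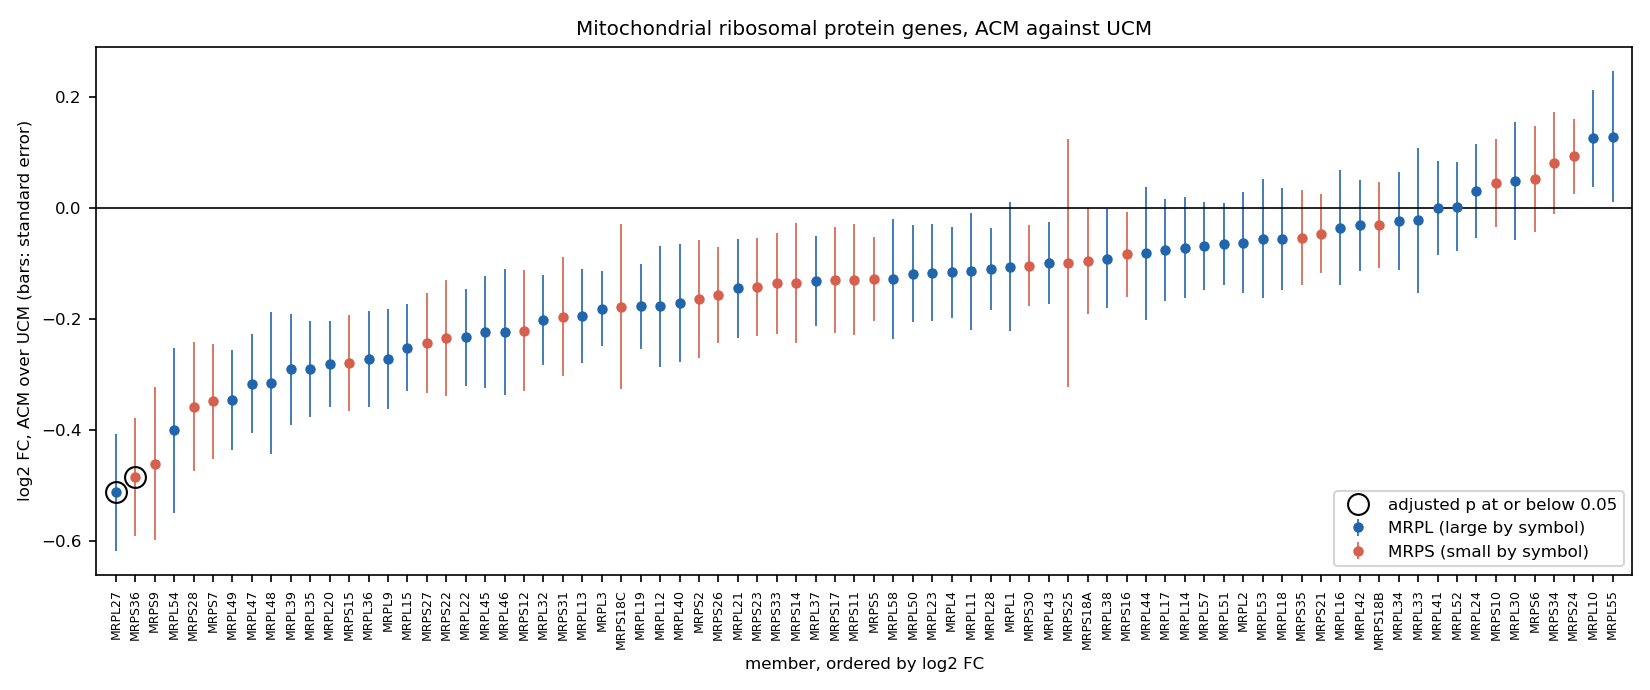
Log2 FC of each of the 78 members (ACM over UCM), ordered from lowest to highest, with bars for the standard error. Blue marks MRPL and red MRPS, both colours are spread over the whole order, and black rings mark MRPL27 and MRPS36, which have an adjusted p at or below 0.05.

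After Benjamini-Hochberg adjustment over all genes tested by edgeR's quasi-likelihood test, 2 members were lower in ACM at an adjusted p at or below 0.05, MRPL27 and MRPS36, and 0 were higher. Over all genes tested, 2.21% were called lower and 3.35% higher, so in this fit the share of members called was near the background. Alternative settings called 0 to 12 members lower, as given further on. At an unadjusted p at or below 0.05, 23 members were lower (background 11.5%) and 0 were higher (background 11.9%). DESeq2 called 3 members lower, adding MRPL49, and 0 higher.

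A further 10 members had an edgeR adjusted p between 0.05 and 0.1, of which MRPL49 came nearest with 0.0519. The others were MRPL20, MRPL47, MRPS7, MRPS9, MRPL35, MRPS15, MRPL15, MRPL36 and MRPS28. In 22 members the 3 ACM libraries lay below the 3 UCM libraries in CPM (background 15.1%), and in 1, MRPL10, they lay above (background 13.9%). The differences were small, with 34 members lower by more than 1.1-fold, 7 by more than 1.25-fold and 0 by more than 1.5-fold. In counts simulated at these depths, 5.97% of 67 genes changed 1.25-fold and 58.8% of 68 genes changed 1.5-fold were recovered by the same test. The changed genes were drawn from all genes tested, with the same variation for every gene. These rates therefore do not measure recovery for the members.

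The counts rested on single libraries. The test called 0 members lower without ACM replicate 2, UCM replicate 2 or UCM replicate 3. At an unadjusted p, 14, 14 and 11 members were lower in these fits. Without UCM replicate 1 the test called 11. Calls over all genes moved as well, from 62 to 572 lower with single libraries left out. Their share is not given for each fit, so these counts do not describe the members alone. UCM replicate 1 was the library that stood apart for these genes. Its median difference from the UCM mean, over the 78 members on the log2 CPM scale, was −0.11, against 0.06 in both other UCM libraries and −0.13, −0.19 and −0.09 in ACM replicates 1, 2 and 3.

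**Figure D3:**
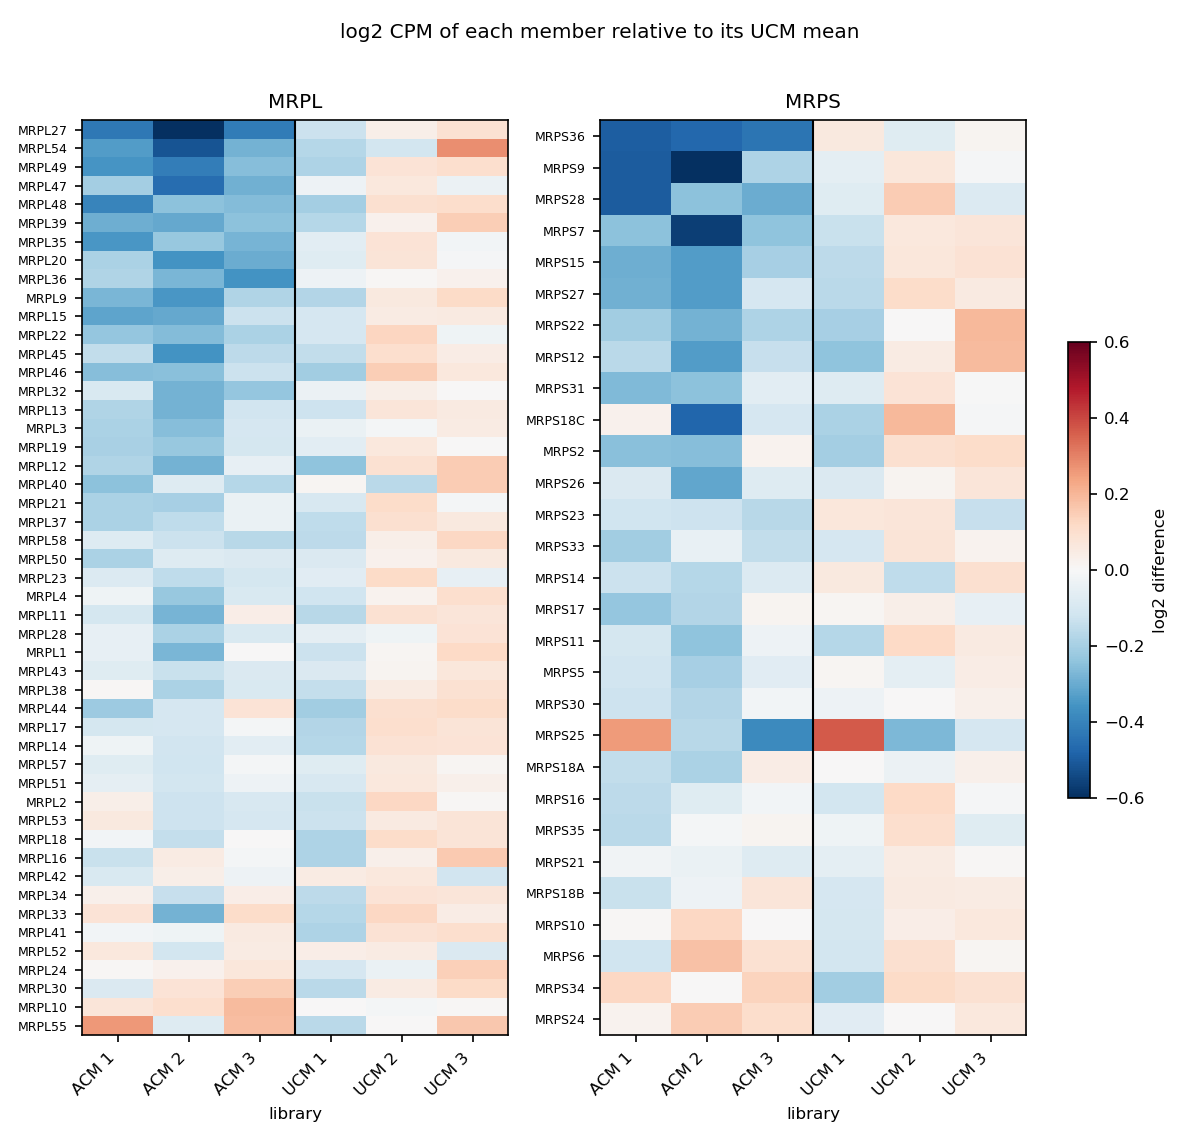
Log2 CPM of the 78 members in each library relative to the member's UCM mean, with MRPL genes on the left and MRPS genes on the right, ordered by log2 FC. Blue is below and red above the UCM mean. ACM replicate 2 is the bluest column (median −0.19), and UCM replicate 1 (median −0.11) is bluer than both other UCM libraries.

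Against UCM replicate 1, 46, 53 and 34 of the 78 members were lower in ACM replicates 1, 2 and 3. Against UCM replicates 2 and 3 these numbers were between 65 and 71. ACM replicate 3 and UCM replicate 1 differed by a median of 0.01 on the log2 scale over the members. ACM replicate 2 was the lowest of the 6 libraries for 40 members, and UCM replicates 2 and 3 were the highest for 34 and 32. UCM replicate 1 was also high in the mRNAs of mitochondrial DNA, with a median difference of 0.46 from the UCM mean, as was ACM replicate 1 with 0.48, and whether this bears on the members was not tested.

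MRPL27, the homologue of bacterial L27, a protein that reaches toward the peptidyl transferase centre, had the lowest log2 FC. Its CPM was 24.8, 20.8 and 24.9 in the ACM libraries and 30.6, 34.3 and 35.7 in the UCM libraries. The groups did not overlap, with ACM replicate 2 lowest. It fell by 0.51 on the log2 scale (SE 0.10, edgeR's quasi-likelihood test, Benjamini-Hochberg adjusted p = 0.0221), a CPM 1.43-fold lower in ACM. It was called under 13 of 16 alternative settings, with log2 FC from −0.60 to −0.43 and adjusted p from 0.000169 to 0.115, and lost the call without ACM replicate 2, UCM replicate 2 or UCM replicate 3. The gene (ENSG00000108826.16, GRCh38 chr17:50367857-50373207, minus strand) lies back to back with EME1, whose start is 13 bases away and whose log2 FC was −0.03.

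MRPS36 was named as a small subunit protein, but its product, now also called KGD4, is known as a component of the 2-oxoglutarate dehydrogenase complex. The gene (ENSG00000134056.12) lies at GRCh38 chr5:69217760-69230158 on the plus strand. Its CPM was 12.7, 13.0 and 13.3 in ACM and 18.9, 17.2 and 18.4 in UCM. Values in ACM were close together, and the groups did not overlap. It fell by 0.48 on the log2 scale (SE 0.11, edgeR's quasi-likelihood test, Benjamini-Hochberg adjusted p = 0.0291), and 10 of 16 alternative settings called it. The call was lost with effective lengths as offsets and without ACM replicate 1, 2 or 3 or UCM replicate 2 or 3, where the adjusted p reached 0.129 and the log2 FC stayed between −0.52 and −0.46. Leaving the gene out gave 68 of 77 members below 0 with the median still at −0.13.

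**Figure D4:**
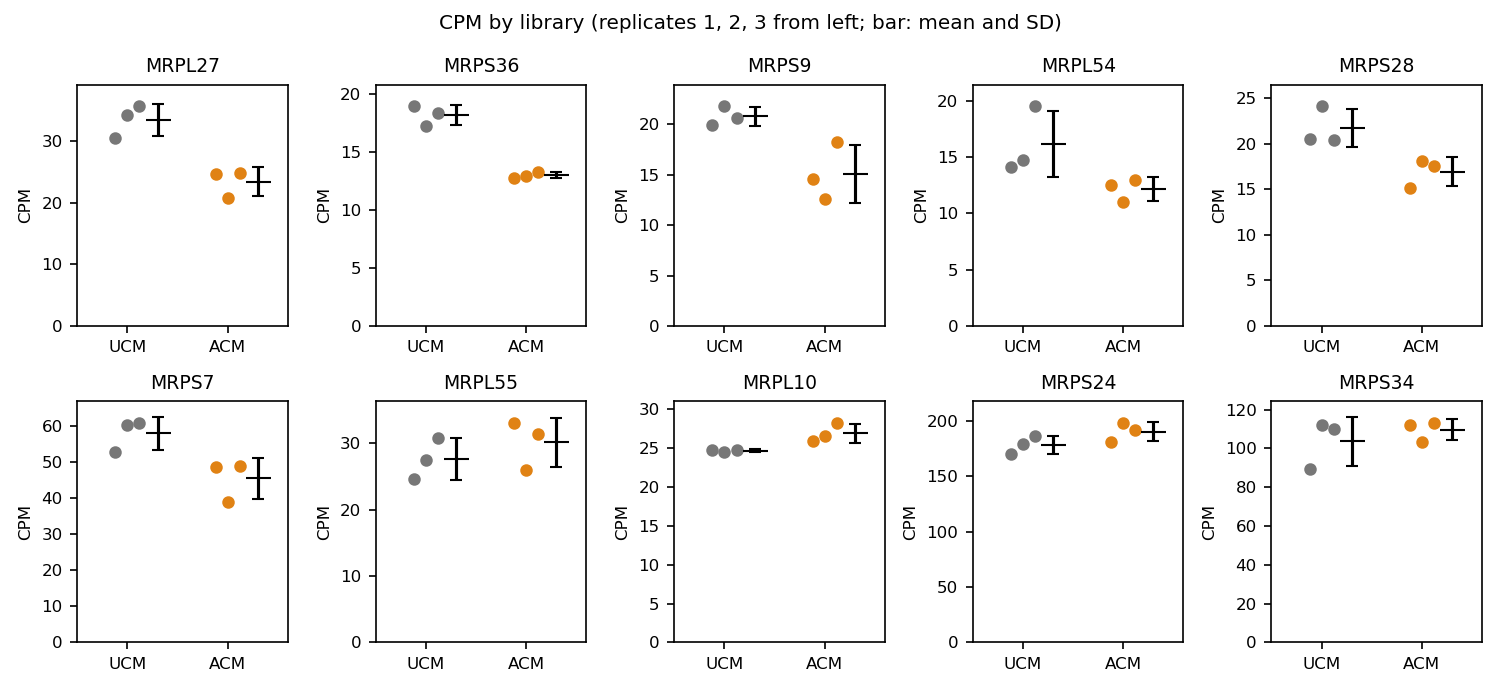
CPM of 10 members by library, the 6 with the lowest log2 FC and the 4 with the highest. Dots are replicates 1, 2 and 3 from left to right, grey for UCM and orange for ACM, and the bar beside them is the mean with the SD. In MRPL27, MRPS36, MRPS9, MRPL54, MRPS28 and MRPS7 the orange dots lie below the grey ones, and in MRPL10 above them.

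MRPS9, the homologue of bacterial S9 in the head of the small subunit, had 14.5, 12.6 and 18.2 CPM in ACM and 19.9, 21.8 and 20.6 CPM in UCM. The groups did not overlap, but ACM replicate 3 lay near UCM. The log2 FC was −0.46 (SE 0.14) with an adjusted p of 0.0785 by edgeR's quasi-likelihood test, and without ACM replicate 3 it passed at 0.0379.

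MRPL54, a mitochondrion-specific protein of the large subunit, had 12.5, 10.98 and 13.0 CPM in ACM and 14.1, 14.7 and 19.5 CPM in UCM. Its UCM values were uneven, with replicate 3 well above the others. MRPS28, a small subunit protein, had 15.2, 18.1 and 17.5 CPM in ACM and 20.6, 24.1 and 20.4 CPM in UCM. MRPS7, related to bacterial S7, which lies in the head of the small subunit, had 48.7, 38.9 and 48.8 CPM in ACM and 52.6, 60.3 and 60.8 CPM in UCM. In these 3 genes the groups did not overlap, with log2 FC of −0.40, −0.36 and −0.35 and edgeR adjusted p of 0.136, 0.0993 and 0.0783. Without UCM replicate 3 the log2 FC of MRPL54 was −0.23.

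MRPL49, a mitochondrion-specific large subunit protein, had 68.0, 65.2 and 72.9 CPM in ACM and 76.5, 92.2 and 93.4 CPM in UCM. UCM replicate 1 lay nearest to the ACM values. The log2 FC was −0.35 (SE 0.09), and without UCM replicate 1 the edgeR adjusted p moved from 0.0519 to 0.00691. Its opposite-strand neighbour SYVN1 overlaps it and held counts equal to 98.0% of its own.

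MRPL20 and MRPL47, whose ETS letters are printed above, and MRPL15 came close to the threshold. MRPL20, related to bacterial L20, an early assembly protein, had 62.6, 55.7 and 58.1 CPM in ACM and 67.9, 75.4 and 71.1 CPM in UCM. MRPL47, a protein at the tunnel exit related to bacterial L29, had 38.5, 32.3 and 36.4 CPM in ACM and 43.5, 46.5 and 43.4 CPM in UCM. MRPL15 had 95.0, 95.5 and 108 CPM in ACM and 110, 122 and 123 CPM in UCM. In each of them the ACM values lay below the UCM values, though in MRPL15 ACM replicate 3 lay close to UCM replicate 1, with log2 FC of −0.28, −0.32 and −0.25 and edgeR adjusted p of 0.0619, 0.0672 and 0.0883. MRPL20 and MRPL47 overlap MRPL20-AS1 (47.0% of the member's counts) and ACTL6A (185%) on the other strand. These and MRPL49 were chosen for their p after their values were seen.

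Members with the highest log2 FC did not pass the test. MRPL10, the stalk base protein related to bacterial L10, had 25.9, 26.5 and 28.3 CPM in ACM and 24.7, 24.5 and 24.8 CPM in UCM. The groups did not overlap, but the log2 FC was 0.12 (SE 0.09, edgeR adjusted p = 0.431). MRPL55, which had the highest log2 FC at 0.13 (SE 0.12), had 33.0, 26.0 and 31.3 CPM in ACM and 24.5, 27.5 and 30.8 CPM in UCM, and its groups overlapped. MRPS24, MRPS34, MRPS6 and MRPL30 followed with log2 FC of 0.09, 0.08, 0.05 and 0.05, and the groups overlapped in each. MRPS34 turned to −0.01 without UCM replicate 1.

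Large and small subunit genes had medians that lay close together. The median log2 FC was −0.12 over the 49 MRPL genes, of which 44 were below 0, and −0.14 over the 29 MRPS genes, of which 25 were below 0. By symbol, 1 MRPL gene (MRPL27) and 1 MRPS gene (MRPS36) were called. MRPS36, whose product is known from another complex, is counted in all MRPS values here. The ACM libraries lay below the UCM libraries in 16 MRPL and 6 MRPS genes (32.7% and 20.7% of each, background 15.1%), and 16 and 7 were lower at an unadjusted p (32.7% and 24.1%, background 11.5%). Without UCM replicate 3 the MRPL median was −0.08, and with single libraries left out it ranged from −0.17 to −0.08. No test was made of the difference between the subunits.

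Summed TPM gives the level of the whole set in each library. The 78 members summed to 7893, 7440 and 8382 TPM in ACM and to 8027, 8847 and 8957 TPM in UCM. ACM replicate 3 was above UCM replicate 1, so the groups overlapped, and the mean dropped by 8.19%. The large subunit sum dropped by 9.32%, and the small subunit sum dropped by 6.02%. MRPS24 alone averaged 644 TPM in UCM and 683 in ACM, within small subunit sums of 2947 and 2769 TPM. Its mean was thus higher in ACM while the small subunit sum was lower. The smaller drop of the small subunit sum and the ratio below therefore depend much on this gene. Neither was computed without MRPS24, so they are not shown to hold for the other small subunit genes.

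The ratio of large to small subunit TPM, by symbol, was 1.92, 1.79 and 1.85 in ACM and 1.92, 1.92 and 1.93 in UCM. ACM replicate 1 reached the UCM values and ACM replicates 2 and 3 lay below them, with means of 1.85 ± 0.0639 and 1.92 ± 0.0053 (SD, n = 3). Counting MRPS30 and MRPS18A as large subunit genes gave 1.96 ± 0.0692 and 2.03 ± 0.0042. Per gene, the mean TPM of an MRPL gene was 1.137 times that of an MRPS gene in UCM and 1.097 times in ACM.

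Medians of members grouped by origin or by place in the ribosome were also close. The 46 members with a bacterial homologue had a median log2 FC of −0.13 (39 below 0), and the 32 others had −0.12 (30 below 0). This split counts MRPS18C alone of the MRPS18 genes as a bacterial homologue, and with MRPS18A and MRPS18B moved to it as well, the medians were −0.13 over 48 members (41 below 0) and −0.13 over 30 (28 below 0). The medians were −0.11 over the 3 stalk proteins (MRPL10, MRPL11 and MRPL12), −0.12 over 7 proteins at the exit of the peptide tunnel and −0.13 over 7 proteins of the central protuberance. MRPL12, a stalk protein that has also been reported to bind the mitochondrial RNA polymerase, had 66.6, 62.0 and 72.9 CPM in ACM and 63.7, 80.5 and 83.8 CPM in UCM, with overlapping groups. Split by level into 3 sets of 26, the members had medians of −0.13, −0.14 and −0.11 from the lowest to the highest TPM.

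MRPS18A, MRPS18B and MRPS18C are paralogs that all derive from bacterial S18, and MRPS18A sits in the large subunit. In UCM their mean levels were 47.2 ± 1.501, 126 ± 6.41 and 34.5 ± 6.10 TPM, which did not overlap between the genes. Their log2 FC was −0.10 (SE 0.10), −0.03 (SE 0.08) and −0.18 (SE 0.15), none of them called. MRPS30, the other large subunit protein with a small subunit name, had 61.4, 59.3 and 66.2 CPM in ACM and 65.5, 67.0 and 68.3 CPM in UCM, with a log2 FC of −0.10 (SE 0.07).

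MRPS25, a mitochondrion-specific small subunit protein, was the least even member across libraries. Its CPM was 112, 83.4 and 71.7 in ACM and 121, 77.6 and 87.3 in UCM, highest in replicate 1 of both groups. Its effective length, a mean over its transcripts weighted by their abundance, ran from 2159 bases in ACM replicate 3 to 3759 in ACM replicate 1, and it was longest in both libraries with the highest CPM. On the TPM scale it was 42.1, 42.6 and 48.0 in ACM and 53.4, 43.9 and 48.4 in UCM. It was the 1 member whose effective length differed more than 1.5-fold between libraries.

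Member genes lie on 21 chromosomes. For 17 members (21.8%), a protein-coding gene on the other strand starts within 1000 bases upstream of the member's start. This held for 8.54% of 20046 protein-coding GENCODE genes. Genes on the other strand that start downstream of the member's start were not counted. The 18 such neighbours that were tested include MRPL46 and MRPS11, which are members themselves. The neighbours had a median log2 FC of −0.09, with 15 below 0, against 51.9% of all genes tested. By edgeR's quasi-likelihood test, 0 of them were called in either direction. MRPL46 and MRPS11, a large and a small subunit gene, start 63 bases apart and had log2 FC of −0.22 (SE 0.11) and −0.13 (SE 0.10). MRPL36 and MRPL47 each start 41 bases from a gene for a subunit of respiratory complex I, NDUFS6 and NDUFB5, whose log2 FC was −0.02 and −0.10.

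Overlap between genes may limit some of these values, because the sources used here do not state whether counting used strand. In 25 members, overlapping genes held counts equal to more than 10% of the member's own. Overlap was taken over whole genes with their introns, and all counts of the other gene were used. The shares therefore do not give the reads that fall where both genes have exons. The largest were CACYBP at MRPS14 (732%) and COPB2 at MRPS22 (642%). Opposite-strand genes of this kind included GGA3 at MRPS7 (65.1%), PPP1R10 at MRPS18B (64.5%), NR2C2 at MRPS25 (55.7%) and ABHD8 at MRPL34 (51.2%), and SLC5A3 overlaps MRPS6 on the same strand (69.1%). Pseudogenes of the members took few reads, with 75 counts over the 78 listed pseudogenes against 490611 for the members in the 6 libraries.

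Motif content did not go with a clear difference in log2 FC. Members with the ETS letters had a median of −0.09 and those without −0.13. For the NRF1 core the medians were both −0.13, for the YY1 letters −0.10 and −0.13, and for the E-box −0.23 over 6 members and −0.11.

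Other genes of mitochondrial translation are shown beside the members. Listed by hand as mitoribosomal proteins with other names were DAP3, PTCD3, AURKAIP1, CHCHD1, GADD45GIP1 and NDUFAB1. Of these 6 genes, 5 were below 0 with a median of −0.06. NDUFAB1, the lowest of them at −0.12, is not an established protein of the mature ribosome. Of 27 assembly factors, 20 were below 0 with a median of −0.05. Of 16 translation factors, 14 were below 0 with a median of −0.16, while TUFM, the elongation factor that delivers aminoacyl-tRNA, was at 0.05 (SE 0.08). In these 3 lists edgeR's quasi-likelihood test called 0 genes, and 0, 3 and 5 were lower at an unadjusted p.

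**Figure D5:**
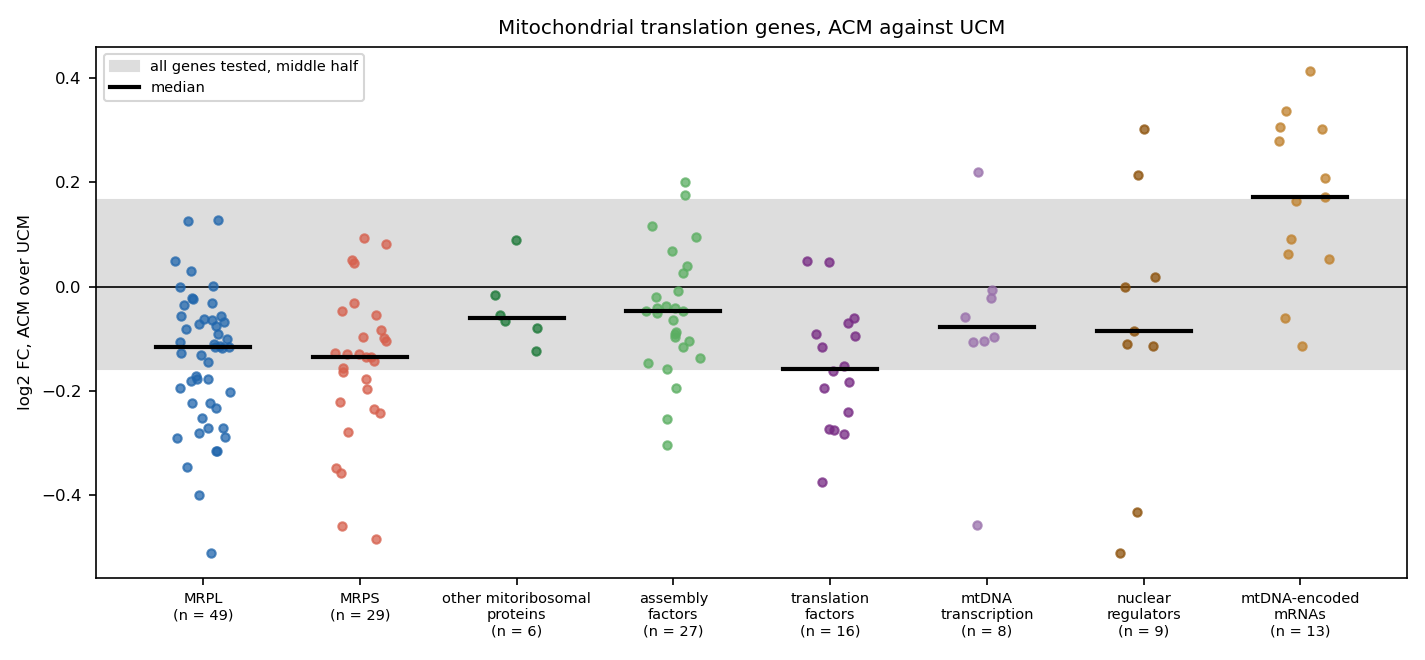
Log2 FC (ACM over UCM) of MRPL genes, MRPS genes and 6 other lists of mitochondrial gene expression, 1 point per gene tested, with black bars at the medians. The grey band holds the central values of all genes tested, from −0.16 to 0.17. Most points of the MRPL, MRPS and translation factor lists lie below 0, and those of the mitochondrial mRNAs mostly above.

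Cytosolic ribosomal proteins, the counterparts in the other ribosome of the cell, had a median log2 FC of −0.08 over 83 tested genes, with 68 below 0. Of these, 3 were called lower, and in 15 (18.1%) the 3 ACM libraries lay below the 3 UCM libraries, shares near those of all genes tested (2.21% and 15.1%). The difference between them and the mitochondrial set was not tested.

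Among nuclear regulators of mitochondrial genes, GABPB1, a subunit of the ETS factor also called NRF-2, was called lower. Its CPM was 15.4, 14.6 and 15.9 in ACM and 21.5, 21.3 and 22.6 in UCM. Groups were well apart, and it fell by 0.51 on the log2 scale (SE 0.10, edgeR's quasi-likelihood test, Benjamini-Hochberg adjusted p = 0.0176). The call held under 10 of 16 alternative settings and was lost with limma on TPM, with effective lengths and without ACM replicate 2 or UCM replicate 2 or 3, with adjusted p up to 0.110. Its partner GABPA, which binds the DNA, had a log2 FC of 0.02 (SE 0.08). The antisense gene GABPB1-AS1 overlaps the start of GABPB1, and reads of both cannot be told apart without strand.

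NRF1, the factor whose core motif was searched above, had 15.3, 14.0 and 12.8 CPM in ACM and 17.1, 20.5 and 19.3 CPM in UCM. The groups did not overlap, but its edgeR adjusted p was 0.0632. YY1 ranged from 119 to 120.4 CPM in the 6 libraries. MYC, a general activator of ribosome genes, had 179, 183 and 196 CPM in ACM and 150, 142 and 160 CPM in UCM, and rose by 0.30 on the log2 scale (SE 0.07, edgeR's quasi-likelihood test, Benjamini-Hochberg adjusted p = 0.0371). The MYC call held under 9 of 16 alternatives and was lost on both TPM scales, with effective lengths and without ACM replicate 2 or 3 or UCM replicate 2 or 3, with adjusted p up to 0.188. Of the 10 regulators, 9 were tested, 1 was called lower and 1 higher. PPARGC1A, a coactivator of mitochondrial biogenesis, was not tested and did not exceed 0.0563 CPM.

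The 13 mRNAs of mitochondrial DNA, which the mitoribosome translates, varied widely between libraries. Their log2 FC had a median of 0.17, with 11 above 0. By edgeR's quasi-likelihood test 0 were called, and 0 passed at an unadjusted p. Summed, they reached 80777, 63514 and 54134.5 TPM in ACM and 82082, 46312.5 and 47842 TPM in UCM. Both libraries numbered 1 were highest, whichever the medium. Of 8 genes for the transcription and copying of mitochondrial DNA, 7 were below 0 with a median of −0.08, and edgeR's quasi-likelihood test called 0, with 1 lower (TEFM) and 1 higher (POLRMT) at an unadjusted p.

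The mitochondrial rRNAs lack the long polyA tail of nuclear mRNAs, so their values in polyA-enriched libraries depend on what was captured. MT-RNR2, the rRNA of the large subunit, had 7455, 6252 and 4904 CPM in ACM and 5416, 3766 and 3690 CPM in UCM, with overlapping groups. Its log2 FC was 0.53 (SE 0.20, edgeR's quasi-likelihood test, Benjamini-Hochberg adjusted p = 0.167). MT-RNR1, the rRNA of the small subunit, had 853, 686 and 595 CPM in ACM and 845, 763 and 670 CPM in UCM, with a log2 FC of −0.09 (SE 0.14).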

How the data were processed

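For each of the 6 libraries the authors deposited RSEM output, made from paired reads after Trim Galore and STAR (GRCh38). Versions are not given in the sources used here. The deposited expected counts are not scaled for library size, and reads that fit several genes are shared between them. The deposited TPM values are per length, using a library's own effective lengths, which are among the deposited columns. A deposited table of the authors' own fold changes and p-values was not used.

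Expected counts were rounded and tested in R 4.3.3 with edgeR 4.0.16 (filterByExpr, TMM, robust quasi-likelihood fit with no covariate), with Benjamini-Hochberg adjustment over the 14451 genes that passed the filter, among them all 78 members. The common coefficient of biological variation was 0.115. CPM used TMM library sizes. Nothing in the labels says whether replicates were separate cultures, so p-values measure the spread between these samples only. On data simulated for ACM against UCM (14278 genes), 86.9% of 61 genes changed 2-fold were recovered, with 4 false calls.

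Of the 63140 identifiers with versions, 61547 were found in GENCODE 44, which gave symbols, positions and gene classes. Promoter sequences came from RefSeq. Members and lists were chosen with earlier results of these data known, and the lists were typed by hand. Genes were named by rule: members called, the 6 with the lowest and the 6 with the highest log2 FC, the 5 highest and 3 lowest in TPM, those with uneven effective length, the MRPS18 paralogs and MRPS30, and called genes of other lists with both mitochondrial rRNAs. Other genes were named as examples after their values were seen.

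Alternatives were DESeq2 1.42.0, RLE size factors, 2 other filters, limma 3.58.1 (limma-trend) on log2(TPM + 1) and log2(TPM + 0.1), effective lengths as offsets, protein-coding genes only, a replicate block, each library left out, and, added after seeing the data, both libraries numbered 1 left out.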

Additional observations from a re-analysis of the deposited data

How the results depend on the processing

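Under the 16 alternative settings, 64 to 70 members had a log2 FC below 0, the median over the members stayed between −0.17 and −0.09, and 0 members were called higher by edgeR, DESeq2 or limma. Counts of calls depended on the setting. The 2 members called lower became 1 with effective lengths as offsets, 11 with every gene of at least 1 count, 11 with both libraries numbered 1 left out, and 0 to 11 with single libraries left out. Over all genes, the 484 called higher and 320 called lower became 272 and 134 with effective lengths, 1045 and 679 with at least 1 count, 234 and 138 on log2(TPM + 0.1), 230 and 132 on log2(TPM + 1), and 1017 and 726 with both libraries numbered 1 left out. With single libraries left out they ranged from 125 to 738 higher and from 62 to 572 lower, and members lower at an unadjusted p from 11 to 29. The median log2 FC of all genes was 0.0022 with at least 10 counts in every library, −0.033 on log2(TPM + 0.1), −0.028 on log2(TPM + 1) and −0.018 to 0.0082 with single libraries left out. The ratio of large to small subunit TPM in UCM was 2.03 by structure. The cause of these shifts was not tested, beyond the fewer or more genes and samples that each setting takes.

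With the replicate number as a block, 12 of the 78 members were called lower. Of the 14451 genes tested, 909 were called higher and 703 lower, a smaller share lower than among the members. The labels do not say that the numbers pair the samples. Deviations of same-numbered libraries from their group means had Pearson's r of 0.318, 0.035 and 0.177 across genes. The value for the libraries numbered 1 was the highest of any pair, while ACM replicate 3 correlated best with UCM replicate 2 (0.196). Whether the libraries numbered 1 share a batch was not tested.

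Members near 0 changed sign. MRPL41 gave 0.0088 in DESeq2, 0.0090 with RLE size factors, 0.014 with at least 10 counts, 0.0032 with effective lengths, 0.0040 with at least 1 count, 0.0060 with protein-coding genes only, 0.0046 with the replicate block, and −0.080 to 0.059 with single libraries left out. With both libraries numbered 1 left out, MRPL55 was at −0.0094 and MRPS34 at −0.022. With single libraries left out, the log2 FC ranged from −0.0080 to 0.14 in MRPS34, −0.013 to 0.14 in MRPS6, −0.023 to 0.12 in MRPL30, −0.089 to 0.031 in MRPL34, −0.29 to 0.12 in MRPS25, −0.086 to 0.028 in MRPS18B and −0.24 to 0.016 in MT-RNR1.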
